A study of Homo sapiens with 6 samples.

Results

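The genes described here are 10 members of the KLF family, KLF3, KLF4, KLF5, KLF6, KLF9, KLF10, KLF11, KLF13, KLF15 and KLF16, among the 60656 genes of a count table from ZR-75-1 cells. They were chosen by name, with the measured difference between treated and control cells already known, and the choice set no threshold on it. That difference is therefore given for them as a description. The side of the threshold on which a member fell, in the fit over all genes, is stated only to describe it, and no p is given for a member. The other 8 KLF genes and the 9 related SP genes were not part of the choice. Of the 10 members, 9 had enough counts to pass the filter on low values, and KLF15 did not.

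ZR-75-1 is an established human breast cancer line that is oestrogen receptor-positive. Parental cells were cultured for 4 days in medium with serum, with either DMSO, the solvent, or 500 nM abemaciclib, an inhibitor of the cell cycle kinases CDK4 and CDK6. Each group had 3 libraries, and nothing but the compound differed between them in the labels. The study asked what the retinoblastoma protein does to transcription when these kinases are inhibited, and its RB1 knockout libraries were not analysed here. All 6 libraries come from a single cell line, so the spread between them is that of replicate cultures.

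KLF proteins are transcription factors that bind GC-rich and CACCC sequences through a set of C2H2 zinc fingers at the C-terminus. The family is usually divided by the partners of the N-terminus. KLF3, KLF8 and KLF12 recruit the corepressor CtBP. KLF2, KLF4, KLF5, KLF6 and KLF7 are mainly activators that work with acetyltransferases. KLF9, KLF10, KLF11, KLF13 and KLF16 carry a motif that binds the SIN3A corepressor, and KLF15 stands apart. Several of the genes are rapidly induced by serum, glucocorticoids or TGF-beta, and in mammary epithelium KLF4 and KLF5 are known for roles in proliferation and luminal identity. The SP factors bind the same kind of sequence with closely related zinc fingers.

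Of the 9 members tested, 7 were lower with abemaciclib past an adjusted p of 0.05, 0 were higher and 2 did not pass, in edgeR (quasi-likelihood test, Benjamini–Hochberg over the 10863 genes tested). The share of all tested genes called was 13.3% lower and 12.5% higher, and since the members were chosen with this difference known, nothing was read from the comparison. The 7 lower members were KLF3, KLF4, KLF5, KLF9, KLF10, KLF11 and KLF13. KLF6 and KLF16 did not pass. Without abemaciclib replicate 2 the count of lower members was 4, with KLF5, KLF9 and KLF10 no longer past the threshold. At an unadjusted p under 0.05, 0 members were higher and 8 lower, beside 1940 higher and 1986 lower of all 10863 genes tested. With DESeq2, 0 members were higher and 7 lower. The median log2 fold change of the 9 was −0.64, against −0.0018 over all genes tested. In 8 of the 9 every abemaciclib library lay below every DMSO library, the exception being KLF16. Over all genes tested, 20.0% were separated in that direction and 19.1% in the other. Summed over the 10 members, the level was 454 ± 12.2 CPM (a gene's counts relative to its library's total, scaled by TMM; mean and SD, n = 3) with DMSO and 305 ± 13.1 CPM with abemaciclib.

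**Figure D1:**
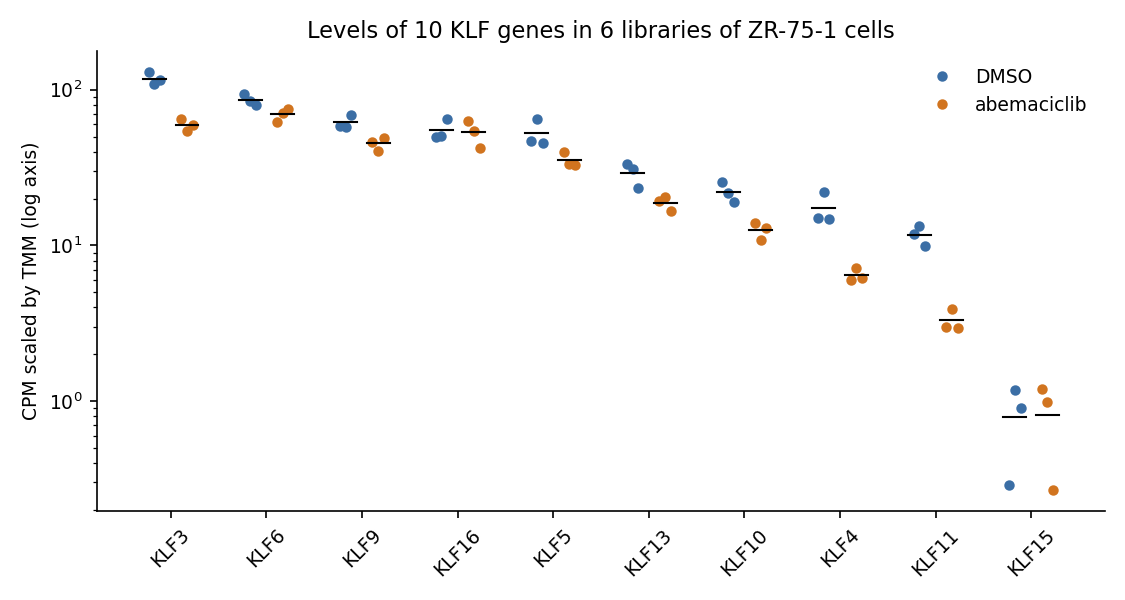
Level of each of the 10 KLF genes in every library, in CPM scaled by TMM on a log axis. Points are libraries (blue, DMSO; orange, abemaciclib) and the bars are group means; the groups are apart for 8 genes, overlap for KLF16, and overlap near the detection limit for KLF15.

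The promoter sequences of KLF9, KLF13 and KLF16 are shown because they span the range of base composition among the members and include a gene that did not pass the threshold. They are the 250 bases before the RefSeq start on GRCh38.p14, written 5′ to 3′ on the strand of the gene. KLF9 is at chr9:70414658-70414907 on the minus strand, KLF13 at chr15:31326585-31326834 on the plus strand and KLF16 at chr19:1863580-1863829 on the minus strand. Capitals mark CACCC, the core of a KLF site, and GGGCGG, the GC box, on either strand, and matches of the 2 motifs may overlap.
KLF9: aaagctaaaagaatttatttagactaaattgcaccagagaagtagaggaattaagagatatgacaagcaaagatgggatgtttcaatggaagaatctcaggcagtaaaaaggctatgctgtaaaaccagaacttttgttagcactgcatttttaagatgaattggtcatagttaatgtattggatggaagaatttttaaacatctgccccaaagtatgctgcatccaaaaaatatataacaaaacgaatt
KLF13: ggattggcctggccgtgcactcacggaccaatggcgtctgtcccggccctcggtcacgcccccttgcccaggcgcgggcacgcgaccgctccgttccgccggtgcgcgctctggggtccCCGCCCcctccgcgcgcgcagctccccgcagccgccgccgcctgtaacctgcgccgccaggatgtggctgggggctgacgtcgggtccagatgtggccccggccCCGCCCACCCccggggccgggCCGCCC
KLF16: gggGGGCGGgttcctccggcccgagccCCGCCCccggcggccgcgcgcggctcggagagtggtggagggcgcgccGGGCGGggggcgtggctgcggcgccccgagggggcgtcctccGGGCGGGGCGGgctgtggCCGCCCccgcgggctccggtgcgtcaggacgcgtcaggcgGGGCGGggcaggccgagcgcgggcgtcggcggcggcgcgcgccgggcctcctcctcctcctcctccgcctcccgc

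The KLF9 window held neither motif and had a GC content of 32.4%. The KLF13 window held 1 CACCC and 3 GGGCGG matches at 78.8% GC, and the KLF16 window held 7 GGGCGG matches and no CACCC at 86.4% GC. RefSeq gave 10 starts for 8 members in the table of promoters used here. KLF3 and KLF10 were not in it. GGGCGG was found before 8 of the 10 starts, in 7 members, and CACCC before 4, in 3 members. Among the 12507 promoters of 8589 tested genes, cut to the same 250 bases and searched on both strands, GGGCGG was in 65.4% and CACCC in 57.9%. CACGTG, the E-box, was in 4 of the 10 member promoters and in 8.52% of those of tested genes. TGACGTCA, the cyclic AMP response element, was only before 1 start of KLF11 among the members (2.69% of tested genes' promoters), and TTTGAA, a cell cycle element, only before that of KLF6 (8.62%). A match of letters is a description of the window and not a binding site.

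The libraries were made with a 3′ mRNA kit, which gives a single tag per transcript whatever its length, so levels can be set side by side between genes without a correction for length. With DMSO, KLF3 was the most abundant of the 10, followed by KLF6, KLF9, KLF16, KLF5, KLF13, KLF10, KLF4, KLF11 and KLF15. In that order the ranges over libraries overlapped between KLF9 and KLF16, between KLF16 and KLF5, between KLF13 and KLF10 and between KLF10 and KLF4. With abemaciclib, KLF6 stood first, followed by KLF3, KLF16, KLF9, KLF5, KLF13, KLF10, KLF4, KLF11 and KLF15. There the ranges overlapped between KLF6 and KLF3, between KLF3 and KLF16 and between KLF16 and KLF9. KLF2, which was not among the 10, was the most abundant KLF transcript in both groups.

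KLF3, the CtBP-recruiting member and a repressor in many cell types, lies at chr4:38664197-38701517 on the plus strand. Its levels with DMSO were 131, 108 and 115 CPM in replicates 1 to 3, and with abemaciclib they were 65.0, 54.2 and 59.2 CPM. The groups did not overlap, and every abemaciclib library was well under the lowest DMSO library. The log2 fold change was −0.99 ± 0.13 (SE), a level 50.3% of that with DMSO. KLF3 was 1 of 3 members, with KLF4 and KLF11, that stayed past the threshold under every alternative run. The pseudogene copies of KLF3 had a mean of 0.667 counts.

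The activators came next. KLF4, known as a pluripotency factor and as a regulator of epithelial differentiation, lies at chr9:107484852-107490482 on the minus strand. Its levels were 15.0, 22.2 and 14.8 CPM with DMSO and 6.02, 7.12 and 6.18 CPM with abemaciclib. DMSO replicate 2 was the highest library, while the 3 abemaciclib libraries were close together. KLF4 fell by 1.42 on the log2 scale (SE 0.30), to 37.4% of its DMSO level, from counts of 49 to 75 per DMSO library to counts of 20 to 29.

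KLF5, an activator linked to proliferation of epithelial cells, lies at chr13:73054976-73077541 on the plus strand. It was measured at 46.7, 65.3 and 45.2 CPM with DMSO and at 40.0, 33.4 and 32.8 CPM with abemaciclib. The groups did not overlap, but DMSO replicate 2 stood well above the other DMSO libraries. The log2 fold change of −0.57 ± 0.17 (SE) was −0.38 without DMSO replicate 2 and −0.53 without abemaciclib replicate 2, and in both cases KLF5 no longer passed.

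KLF6, a broadly expressed activator known as a target of injury and serum signals, lies at chr10:3775996-3785281 on the minus strand. Its levels were 93.7, 85.1 and 79.2 CPM with DMSO and 61.7, 71.2 and 75.6 CPM with abemaciclib. The highest abemaciclib library was only slightly below the lowest DMSO library. The log2 fold change was −0.31 ± 0.13 (SE), with a 95% interval from −0.58 to −0.039, and it did not pass after adjustment over all genes. Without abemaciclib replicate 3 it was −0.37 and passed.

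Among the SIN3A-binding members, KLF11 had the largest log2 fold change of the 10. KLF11, a repressor of the TGF-beta early response group, lies at chr2:10042849-10054836 on the plus strand. Its levels were 11.8, 13.3 and 9.94 CPM with DMSO and 3.01, 3.93 and 2.96 CPM with abemaciclib. The counts behind them were 33 to 45 and 10 to 16 per library, so KLF11 was also the least abundant of the members tested. KLF11 fell by 1.81 on the log2 scale (SE 0.38), to 28.6% of its DMSO level.

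KLF10, also called TGF-beta inducible early gene is on chromosome 8. It was measured at 25.4, 21.9 and 19.0 CPM with DMSO and at 13.8, 10.8 and 12.9 CPM with abemaciclib. The groups did not overlap, and abemaciclib replicate 2 was the lowest library. The log2 fold change was −0.82 ± 0.24 (SE). It was −0.71 without DMSO replicate 1 and −0.72 without abemaciclib replicate 2, and KLF10 passed in neither case.

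KLF9, a gene induced by glucocorticoids, thyroid hormone and progesterone, lies at chr9:70384604-70414657 on the minus strand. Its levels were 58.6, 57.6 and 69.0 CPM with DMSO and 46.4, 40.5 and 48.7 CPM with abemaciclib. Among the 7 lower members this was the smallest difference, −0.45 ± 0.15 on the log2 scale (SE). It was −0.37 both without DMSO replicate 3 and without abemaciclib replicate 2, and KLF9 did not pass in either.

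KLF13, a factor studied in lymphocytes and heart, lies at chr15:31326835-31435665 on the plus strand. It was measured at 33.5, 31.0 and 23.5 CPM with DMSO and at 19.3, 20.6 and 16.7 CPM with abemaciclib. DMSO replicate 3 was closest to the treated libraries. The log2 fold change of −0.64 ± 0.21 (SE) was −0.53 without DMSO replicate 1, −0.60 without DMSO replicate 2 and −0.55 without abemaciclib replicate 3, and KLF13 lost its call in each.

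KLF16, a SIN3A-binding repressor first described in brain, lies at chr19:1852399-1863579 on the minus strand. Its levels were 49.9, 50.5 and 64.8 CPM with DMSO and 63.2, 54.0 and 42.2 CPM with abemaciclib. The groups overlapped over most of their range, with the highest library from DMSO and the lowest from abemaciclib. The log2 fold change was −0.054 with a 95% interval from −0.39 to 0.28. That interval includes both falls and rises, so the direction of any KLF16 change was not resolved. KLF16 is a close relative of KLF9 and KLF13 by its partner. The difference between the responses of these genes was not tested.

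KLF15, a regulator of amino acid and glucose metabolism in liver and muscle, lies at chr3:126342635-126357408 on the minus strand. It had 1, 4 and 3 counts with DMSO and 4, 4 and 1 with abemaciclib. Those counts are at or near the limit of detection, since 3 counts correspond to 0.736 to 0.904 CPM, so no fold change is given.

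**Figure D2:**
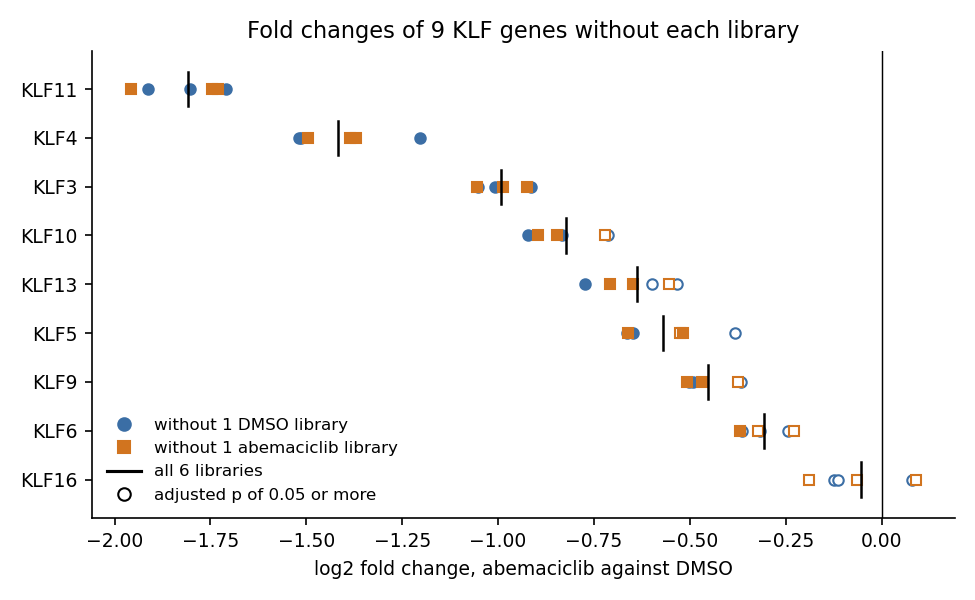
Log2 fold change (abemaciclib against DMSO) of the 9 KLF genes tested, with 1 library left out at a time. Vertical lines are the values from all 6 libraries, and open symbols are fits with an adjusted p of 0.05 or more; KLF11, KLF4 and KLF3 are filled in all 6 fits, and KLF16 crosses 0.

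The makeup of the family is given by the share of each gene. As a share of all KLF and SP counts in a library, KLF16 was 6.14%, 5.92% and 8.23% with DMSO and 11.5%, 10.1% and 9.08% with abemaciclib. KLF6 was 11.5%, 9.97% and 10.1% with DMSO and 11.2%, 13.4% and 16.3% with abemaciclib. KLF11 was 1.26% to 1.56% with DMSO and 0.546% to 0.737% with abemaciclib. A share depends on every other gene in the sum, and the differences in share were not tested. The exact (Clopper–Pearson) 95% intervals of the KLF16 shares ran from 5.08% to 9.35% over the DMSO libraries and from 7.77% to 13.0% over the abemaciclib libraries, for counting error only.

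The other KLF and SP genes were examined in the same fit. Of the 7 with enough counts, 3 fell (42.9%), 0 rose and 4 did not pass by edgeR's quasi-likelihood test, beside 13.3% and 12.5% of all genes. At an unadjusted p under 0.05, 5 were lower and 0 higher, beside 1986 lower and 1940 higher of all 10863 genes tested. DESeq2 gave 3 lower and 0 higher. KLF2, an activator best known in endothelium and T cells, was at 179, 216 and 172 CPM with DMSO and at 115, 117 and 60.8 CPM with abemaciclib. It fell by 0.96 on the log2 scale (SE 0.16, adjusted p = 2.97e-05 by edgeR), and abemaciclib replicate 3 was far below the other treated libraries. Without abemaciclib replicate 3 the log2 fold change was −0.71, and KLF2 still passed. With all 6 libraries, DESeq2 gave KLF2 a log2 fold change of −0.95 and a much larger adjusted p (0.0128 by DESeq2).

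SP1, the ubiquitous GC box activator, was at 70.1, 79.2 and 73.8 CPM with DMSO and at 50.9, 49.8 and 47.1 CPM with abemaciclib. It fell by 0.59 on the log2 scale (SE 0.14, adjusted p = 0.00158 by edgeR). SP2, a less studied relative, was at 17.0, 16.5 and 17.8 CPM and then at 8.13, 7.12 and 10.2 CPM. It fell by 1.01 on the log2 scale (SE 0.28, adjusted p = 0.00719 by edgeR). In both genes the groups were well apart.

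The remaining 4 did not pass. KLF7, an activator of neuronal genes, had a log2 fold change of −0.61 ± 0.25 (SE, adjusted p = 0.0794 by edgeR), with groups that overlapped. Without DMSO replicate 1 (−0.79) or without abemaciclib replicate 2 (−0.83) KLF7 passed, and either way the count of these genes lower was 4. KLF8, which like KLF3 recruits CtBP, had −1.15 ± 0.52 (SE, adjusted p = 0.103 by edgeR) at 2.11 to 7.53 CPM. SP3 had −0.34 ± 0.19 (SE, adjusted p = 0.184 by edgeR) and SP4 had −0.50 ± 0.25 (SE, adjusted p = 0.158 by edgeR). All 7 of these other KLF and SP genes had a negative log2 fold change, as did 50.2% of all genes tested, and in 6 of the 7 every abemaciclib library lay below every DMSO library, against 20.0% of all genes tested. Over the 27 KLF and SP genes together, of which 7 had 0 counts in all 6 libraries, the summed level ranged from 787 to 854 CPM with DMSO and from 465 to 551 CPM with abemaciclib.

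**Figure D3:**
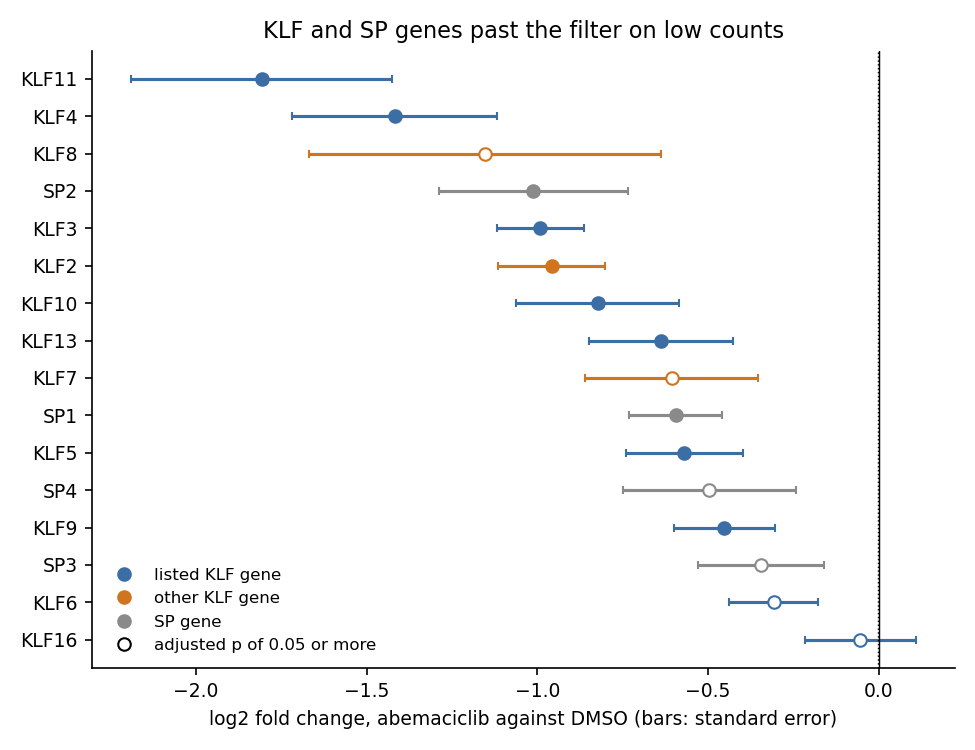
Log2 fold change (abemaciclib against DMSO) of the 16 KLF and SP genes tested, with standard errors as bars. Blue marks the KLF genes chosen by name, orange the other KLF genes and grey the SP genes; open circles did not pass an adjusted p of 0.05, the dotted line is the median of all genes, and every point lies below 0.

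Genes for the partners through which KLF proteins act were taken from the same fit. Of 10 tested corepressor genes, 1 fell (10%), 0 rose and 9 did not pass, with a median log2 fold change of −0.14. Over all genes tested, 13.3% fell and 12.5% rose. SAP30, a subunit of the SIN3 and histone deacetylase complex, was at 64.3, 61.2 and 69.3 CPM with DMSO and at 44.3, 39.3 and 24.5 CPM with abemaciclib, a log2 fold change of −0.85 ± 0.17 (SE, adjusted p = 0.000465 by edgeR). SAP30 replicate values with abemaciclib spread more than those with DMSO, without overlap. At an unadjusted p under 0.05, 1 corepressor gene was higher and 3 were lower, beside 1940 higher and 1986 lower of all 10863 genes tested. DESeq2 called 0 corepressor genes higher and 1 lower. Without abemaciclib replicate 3, edgeR called 3 lower. Of 5 tested acetyltransferase and coactivator genes, 0 passed in either direction, 0 at an unadjusted p under 0.05 and 0 with DESeq2, with a median of 0.020.

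Of 8 genes for ubiquitin ligases or their activators, and deubiquitinases, that act on KLF proteins, 1 rose (12.5%) and 2 fell (25%). The shares over all genes tested were 12.5% and 13.3%, and the median log2 fold change of the 8 was 0.044. CDC20, an activator of the anaphase promoting complex and a mitotic gene, fell by 2.24 (SE 0.22, adjusted p = 6.36e-09 by edgeR). CDC20 shares sequence with the pseudogene CDC20P1, which had a mean of 39.2 counts, so its level is uncertain. SIAH1 fell by 0.97 (SE 0.33, adjusted p = 0.0279 by edgeR), but its last exon overlaps LONP2 on the opposite strand, and it lost its call without DMSO replicate 1 (−1.001), without DMSO replicate 2 (−0.72) and without abemaciclib replicate 1 (−0.76). WWP1, a ligase for KLF5, rose by 0.35 (SE 0.12, adjusted p = 0.0357 by edgeR). It overlaps RMDN1 on the opposite strand, and its call was lost with no filter on low counts and in 4 of the 6 fits without 1 library: 0.32 without DMSO replicate 1, 0.31 without DMSO replicate 2, 0.29 without abemaciclib replicate 1 and 0.36 without abemaciclib replicate 2. Whether the counting used the strand is not stated for these libraries.

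Genes that respond to the signals known to induce KLF members, or that carry those signals, moved in different directions. In the serum response list, 4 of 12 rose (33.3%), 2 fell (16.7%) and 6 did not pass, with a median of 0.27. Among all genes tested, 12.5% rose and 13.3% fell. EGR3, an early growth response factor, rose by 1.74 (SE 0.18, adjusted p = 1.46e-08 by edgeR), from 22.2, 24.5 and 23.5 CPM to 91.5, 88.6 and 55.4 CPM. A long non-coding RNA overlaps it on the opposite strand. JUN, an AP-1 subunit, rose by 0.97 (SE 0.13, adjusted p = 2.31e-06 by edgeR). IER5, an immediate early gene, fell by 1.86 (SE 0.20, adjusted p = 2.35e-08 by edgeR), and ATF3, a stress-induced factor, fell by 1.03 (SE 0.25, adjusted p = 0.00322 by edgeR). The other 2 that rose, FOS (0.77) and IER3 (0.60), were named after their values were seen. SRF, the factor that drives this response, had −0.079 ± 0.16 (SE, adjusted p = 0.769 by edgeR). Without abemaciclib replicate 3, edgeR called 7 of the list higher.

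In the glucocorticoid list, 1 of 8 tested genes rose (12.5%) and 2 fell (25%), against 12.5% and 13.3% of all genes tested. The median log2 fold change was 0.12. DUSP1, a MAP kinase phosphatase, rose by 0.98 (SE 0.24, adjusted p = 0.00327 by edgeR). MT2A, a metallothionein, fell by 3.19 (SE 0.14, adjusted p = 1.03e-16 by edgeR), from 421, 400 and 402 CPM to 50.0, 30.9 and 53.8 CPM. Metallothionein genes are near-identical copies, so the level of MT2A is uncertain. CEBPD fell by 0.52 (SE 0.18, adjusted p = 0.0370 by edgeR) and lost its call in all 6 fits without 1 library. It ranged from −0.57 to −0.46 there, the groups did not overlap, and each such fit holds fewer libraries. CEBPD also lost its call with DESeq2 and with no filter on low counts. NR3C1, the glucocorticoid receptor, had −0.30 ± 0.21 (SE, adjusted p = 0.331 by edgeR).

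In the TGF-beta list, 1 of 10 tested genes rose (10%) and 0 fell, against 12.5% and 13.3% of all genes tested. That list holds ligands, receptors and SMAD genes as well as genes that respond. The median was −0.058. At an unadjusted p under 0.05, 0 were lower and 1 higher, beside 1986 lower and 1940 higher of all 10863 genes tested. DESeq2 called 0 lower and 1 higher. PMEPA1, a feedback inhibitor, rose by 0.29 (SE 0.10, adjusted p = 0.0386 by edgeR) and lost its call when scaled by total counts alone or with no filter on low counts, and also without DMSO replicate 1 (0.23), without DMSO replicate 2 (0.33), without DMSO replicate 3 (0.31) and without abemaciclib replicate 1 (0.27). SMAD7, the inhibitory SMAD, had −0.046 ± 0.33 (SE, adjusted p = 0.942 by edgeR).

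A list of genes reported as targets of KLF proteins had 3 of 11 tested members higher (27.3%) and 3 lower (27.3%), with a median of 0.22. Over all genes tested, 12.5% were higher and 13.3% lower. PTGES, a prostaglandin E synthase, rose by 2.09 (SE 0.094, adjusted p = 1.99e-16 by edgeR). Its levels were 374, 340 and 374 CPM with DMSO and 1576, 1659 and 1413 CPM with abemaciclib. BIRC5, the mitotic gene for survivin, fell by 3.32 (SE 0.15, adjusted p = 1.99e-16 by edgeR). CDKN1A, the inhibitor p21, fell by 2.66 (SE 0.15, adjusted p = 1.66e-14 by edgeR). CCND1, cyclin D1, rose by 1.34 (SE 0.083, adjusted p = 2.85e-13 by edgeR). LTO1 overlaps CCND1 on the opposite strand. BIRC5, CDKN1A and CCND1 belong to the cell cycle too, and without them 2 of 8 tested genes rose (25%) and 1 fell (12.5%). KRT19, a luminal keratin with a log2 fold change of 0.45, was also called and was named after its value was seen. The list holds genes that KLF proteins activate and genes that they repress.

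As a check of the labels, 3 genes of dividing cells were read in every library. MKI67 fell by 6.71 on the log2 scale (SE 0.17, adjusted p = 4.61e-22 by edgeR), CCNA2, cyclin A2, fell by 5.17 (SE 0.33, adjusted p = 5.60e-13 by edgeR), and TK1, thymidine kinase, fell by 2.18 (SE 0.18, adjusted p = 1.78e-10 by edgeR). In each of them every abemaciclib library lay below every DMSO library. All 8 luminal markers were detected, with a summed level of 8196 to 8762 CPM with DMSO and 9505 to 10643 CPM with abemaciclib, most of it from KRT19, GATA3 and XBP1. Of the 8, 3 rose (37.5%), 1 fell (12.5%) and 4 did not pass, against 12.5% and 13.3% of all genes tested. ESR1, the oestrogen receptor, rose by 0.83 (SE 0.10, adjusted p = 2.92e-07 by edgeR), as did KRT19 (0.45) and XBP1 (0.38), while KRT18 fell by 0.34 (SE 0.091, adjusted p = 0.00515 by edgeR). Pseudogene copies of KRT18 had a mean of 135 counts, beside 1685 to 2508 counts of KRT18 per library, so the level of KRT18 is uncertain. Of the 6 basal and squamous markers, KRT5, KRT14 and TP63 had 0 counts in every library, and the sum was 8.57 to 14.8 CPM with DMSO and 0.982 to 2.69 CPM with abemaciclib, where ACTA2 was lower. Their part in the KLF values was not tested. Of the 9 stromal, endothelial and blood markers, 5 were at 0 in all libraries, and the sum was 11.5 to 16.0 CPM and 10.1 to 15.9 CPM. In bulk samples, fewer cells of a kind and less RNA per cell cannot be told apart. Total counts ranged from 3317860 to 4013156 per library.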

How the data were processed

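The 6 RNA libraries, all from parental ZR-75-1 cells, were grouped by their labels. The authors trimmed single-end reads, aligned them to hg38 with STAR 2.7.5b and counted them with featureCounts 2.0.1 on GENCODE release 35. The deposited values are raw counts per gene, with no normalization, and 40227 of 60656 genes had 0 counts in every library. Whether the counting used the strand is not given in the sources used here. In R 4.3.3, edgeR 4.0.16 (filterByExpr, TMM, glmQLFit, glmQLFTest, no covariate, Benjamini–Hochberg over 10863 genes) compared abemaciclib with DMSO, after a test on simulated data. The common biological coefficient of variation was 13.2%. Where no read was counted, up to 3 counts are allowed, for counting error only.

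Coordinates are from GENCODE release 44 on GRCh38, and promoters from RefSeq on GRCh38.p14. Protein sequences were not analysed here. The members and lists were chosen with earlier results of these data known, and the lists were written from general knowledge. Named were all members, every other KLF and SP gene tested, up to 4 called genes per list by size of fold change, and NR3C1, SRF, SMAD7, ESR1 and MKI67. The alternatives were DESeq2 1.42.0, edgeR with the size factors of DESeq2, scaling by total counts alone, leaving out the filter on low counts, at least 10 counts in every library, a replicate block, and each library left out in turn. A called gene of the list of KLF targets is not reported here.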

Additional observations from a re-analysis of the deposited data

How the results depend on the processing

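The count of 7 KLF members lower was 7 with DESeq2, its size factors, total counts, no filter, a minimum of 10 counts in every library and the replicate block. With 1 library left out it ranged from 4 to 7, and was 4 without abemaciclib replicate 2. Abemaciclib replicate 3 differed most from its group, with a chi-square of counts per degree of freedom of 6.43 and 6.79. The other pairs of replicates had 2.78 to 3.99, and log2 CPM correlated at 0.967 to 0.973 in all pairs. Without abemaciclib replicate 3, 1412 genes were called higher and 1529 lower, against 1354 and 1442 with all libraries. Over all alternatives, 96 of 108 values for single members kept their direction and side of the threshold, 9 lost and 1 gained the call, and 2 changed sign. With 1 library left out, KLF16 ranged from −0.19 to 0.088, SMAD7 from −0.13 to 0.025 and SRF from −0.26 to 0.074. KLF16 was positive without DMSO replicate 3 (0.078) and without abemaciclib replicate 3 (0.088), SMAD7 without abemaciclib replicate 3 (0.025), and SRF without DMSO replicate 1 (0.074) and abemaciclib replicate 1 (0.035). The cause was not tested. Of 264 counts of called genes, 27 moved by over 1.5 times, 26 of them in the lists of partners, pathways and targets. Over all genes tested, libraries with the same number did not deviate together (correlations of −0.043, 0.0070 and −0.089). Not every library correlated best with its own number. FOS and JUN were lowest in replicate 3 within each group, while KLF16 was highest in DMSO replicate 3 and lowest in abemaciclib replicate 3. A correlation over all genes cannot show whether single genes vary with the number. The labels do not say whether the libraries were paired. The replicate block called 1139 genes higher and 1280 lower, against 1354 and 1442 without it, and WWP1, CEBPD and PMEPA1 no longer passed. At this depth, genes under a few CPM such as KLF15 could not be compared.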

Other observations

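Some relatives of the KLF members were counted but fell below the filter on low values. KLF12, which recruits CtBP, had 15, 5 and 2 counts with DMSO and 3, 1 and 0 with abemaciclib. SP5, a target of Wnt signalling, had 7, 5 and 4 counts with DMSO and 0, 1 and 1 with abemaciclib. SP6, an epithelial factor, had 3, 3 and 6 counts with DMSO and 5, 1 and 0 with abemaciclib. KLF1, KLF14, KLF17, KLF18, SP7, SP8 and SP9 had 0 counts in all 6 libraries, where 3 counts would be 0.736 to 0.904 CPM. No fold change or test is given for these genes.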
